A study of Mus musculus with 9 samples.

Results

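This account concerns 10 genes of glucocorticoid action in the mouse mediobasal hypothalamus (MBH). They are the receptor genes Nr3c1 and Nr3c2, the hormone-activating enzyme Hsd11b1, and 7 genes that the activated receptor is known to induce: Fkbp5, Sgk1, Tsc22d3, Zbtb16, Hif3a, Cdkn1a and Plin4. The members were fixed by gene symbol, but they were chosen with earlier results of these data known. All 10 were in the authors' table of log2 CPM (read counts scaled to library size), and all 10 passed the filter among 15340 genes tested. They comprised 71 annotated transcripts. Messenger RNA was sequenced from male wild-type C57Bl/6 offspring at postnatal day 21. The 4 CTRL libraries came from litters of dams that drank water. The 5 Emul libraries came from litters of dams that drank water with 1% carboxymethyl cellulose (CMC) and 1% polysorbate 80 (P80) before and during pregnancy and through lactation. One library stood for 1 litter, and pups stayed with the treated dam until weaning, so exposure through the dam and direct contact with the drinking water cannot be told apart.

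Glucocorticoids such as corticosterone cross the cell membrane and bind receptors that chaperones hold in the cytoplasm. The loaded receptor enters the nucleus and binds short DNA elements, and genes such as Fkbp5 and Tsc22d3 rise. In the hypothalamus this is part of the feedback by which the hormone restrains its own release, and FKBP5 protein in turn lowers the affinity of the receptor for the hormone.

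Total estimated counts ranged from 28245360 to 46067534 per library, with the shallowest among the CTRL libraries. The 13 protein genes of the mitochondrial genome took 4.51% to 5.52% of counts in CTRL and 5.71% to 6.75% in Emul, without overlap. Among markers of other cells, 8 of 10 oligodendrocyte genes were lower in Emul at an unadjusted p under 0.05 by limma-voom and none was higher, with a summed level of 13840 to 17440 CPM in CTRL and 10800 to 14800 CPM in Emul. Of 9 neuronal markers, 4 were higher at that p, among them Rbfox3 (0.12 on the log2 scale, without overlap) and Slc17a6 (0.29). Slc32a1 was lower at that p (-0.27), and Gad1 (-0.24) and Gad2 (-0.23) also had log2 fold changes below 0. Directions thus differed within the neuronal list, with sums of 4678 to 4915 CPM in CTRL and 4837 to 4975 CPM in Emul. Of 10 astrocyte markers, 1 had a log2 fold change above 0 and 2 were lower at that p, Gfap (-0.40, without overlap) and Sox9, with sums of 4333 to 4442 CPM in CTRL and 4083 to 4370 CPM in Emul. All 6 thalamic markers had a log2 fold change above 0, 1 of them at that p, with sums of 217.5 to 275.4 CPM in CTRL and 240.4 to 393.4 CPM in Emul. Of 10 arcuate and MBH markers, 9 passed the filter and 1, Isl1, was lower. Of 7 pituitary markers, 5 were under the filter, including Gh and Prl, and of 6 choroid plexus markers 3 were, including Ttr. The part of tissue composition in the differences that follow was not tested. In tissue RNA, fewer cells of a type and less RNA per cell cannot be told apart.

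The activated receptor acts on DNA, so the promoters of the members are shown before the values. The receptor's half-site was searched as AGAACA or its reverse complement TGTTCT in the 250 bases before each annotated start (RefSeq, GRCm38.p6). Of the 10 members, 8 had entries, with 16 starts in all, 6 of them in Sgk1. A half-site lay before 4 of the 16 starts (25.0%), against 16.1% of 32851 promoters of the same length. These 4 starts belonged to Sgk1 and Tsc22d3. The full element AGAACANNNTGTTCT, of 12 fixed bases, was present without a mismatch before 3 of the 32851 starts, and 1 of them was a start of Sgk1. The starts used for Hif3a, Fkbp5, Cdkn1a, Plin4, Hsd11b1 and Nr3c2 had no half-site in this window. A match describes letters, and its absence says only that the letters are not in these bases.

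The following sequences are shown for the exact element, for the half-site of Tsc22d3 and for Hif3a, whose RNA was higher in Emul. Capitals mark half-sites, and each sequence runs 5′ to 3′ on the strand of the gene and ends at the base before the start.
Sgk1, plus strand, chr10:21993640-21993889: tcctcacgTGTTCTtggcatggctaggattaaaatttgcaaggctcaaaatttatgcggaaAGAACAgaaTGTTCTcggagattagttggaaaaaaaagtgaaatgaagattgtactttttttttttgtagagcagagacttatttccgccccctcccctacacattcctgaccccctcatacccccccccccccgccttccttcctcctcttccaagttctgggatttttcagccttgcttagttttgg
Tsc22d3, minus strand, chrX:140600523-140600772: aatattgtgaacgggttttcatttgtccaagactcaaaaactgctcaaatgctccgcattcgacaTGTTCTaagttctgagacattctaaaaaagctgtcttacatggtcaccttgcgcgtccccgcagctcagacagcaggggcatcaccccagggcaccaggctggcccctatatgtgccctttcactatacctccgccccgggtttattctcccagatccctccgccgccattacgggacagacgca
Hif3a, minus strand, chr7:17062428-17062677: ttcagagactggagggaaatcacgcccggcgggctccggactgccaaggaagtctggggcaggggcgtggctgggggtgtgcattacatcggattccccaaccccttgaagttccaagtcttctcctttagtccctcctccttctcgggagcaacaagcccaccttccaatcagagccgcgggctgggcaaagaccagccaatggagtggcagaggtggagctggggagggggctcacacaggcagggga
The Sgk1 start after the first sequence is that of the transcript Sgk1-202, which held 4.48% of the gene's estimated counts. Its counts averaged 129.3 in CTRL and 131.7 in Emul, and they differed by -0.05 ± 0.13 (SE) on the log2 scale. Sgk1-201, which starts downstream, held 77.3% of the counts. The Tsc22d3 start shown lies upstream of the transcripts that carried most counts of that gene.

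Of the 10 members, 1 (Zbtb16) passed the cutoff of an unadjusted p under 0.05 and a fold change above 1.5, against 0.469% of all genes tested. At an unadjusted p under 0.05 alone there were 2 members, Zbtb16 and Hif3a, both higher in Emul, against 15.8% of all genes. No member had an adjusted p under 0.10 by limma-voom over all 9 libraries. One member, Zbtb16, had no overlap between the groups in log2 CPM, as had 6.60% of all genes. The log2 fold change was above 0 for 7 members and below 0 for 3, with a median of 0.15, and the median over all genes tested was 0.0015. As the members were chosen with earlier results of these data known, these comparisons with all genes are descriptive.

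**Figure D1:**
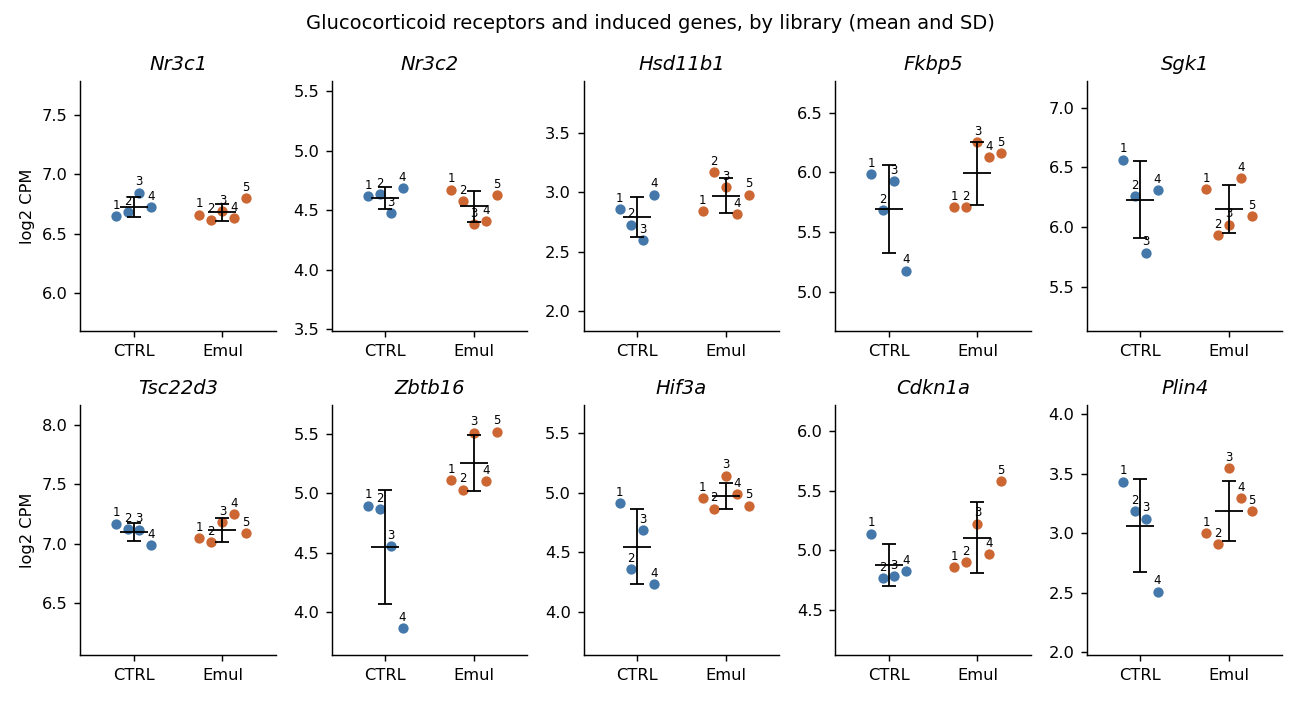
Each panel plots log2 CPM (y axis) of 1 gene in the 4 CTRL and 5 Emul libraries; points are numbered by replicate, the long bar is the mean and the whiskers are the SD, and every panel spans the same range of log2 units. Zbtb16 is the panel without overlap between groups, and CTRL 4 is the lowest library for Zbtb16, Fkbp5, Hif3a, Plin4 and Tsc22d3.

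Nr3c1 encodes the glucocorticoid receptor. Its log2 CPM was 6.65, 6.69, 6.85 and 6.72 in CTRL and 6.66, 6.62, 6.69, 6.63 and 6.80 in Emul. The groups overlapped, and the difference on the log2 scale was -0.04 ± 0.047 (SE; limma-voom adjusted p = 0.695). Nr3c2 (chr8:76899442-77245012, plus strand) encodes the mineralocorticoid receptor, which binds the same hormone with higher affinity. Its log2 CPM was 4.62, 4.64, 4.47 and 4.68 in CTRL and 4.67, 4.57, 4.38, 4.41 and 4.62 in Emul. These groups overlapped too, with a log2 fold change of -0.08 ± 0.067 (SE; limma-voom adjusted p = 0.587).

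Levels of different genes were compared in TPM, a unit that divides by transcript length. Nr3c1 stood at 39.6 ± 2.75 TPM in CTRL (SD, n = 4) and 34.9 ± 2.43 TPM in Emul (SD, n = 5), with overlap (two-sided exact permutation test on log2 TPM, p = 0.0317). Nr3c2 stood at 10.7 ± 1.23 TPM in CTRL and 8.32 ± 1.10 TPM in Emul. TPM carries no correction for composition, and its median over 15320 genes was lower in Emul by 0.0997 on the log2 scale. The ratio of Nr3c1 to Nr3c2 is free of that shift. It was 3.44, 3.16, 4.43 and 3.98 in CTRL and 3.64, 4.39, 4.81, 4.23 and 4.11 in Emul. The groups overlapped, and the log2 ratios differed by 0.18 (two-sided exact permutation of the group labels, p = 0.183). From transcripts of 1000 bases and more alone, a setting chosen after the data were seen, the difference was 0.02 (exact p = 0.849).

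A short transcript carried a share of the TPM of Nr3c2 far above its share of the counts. Nr3c2-207 is 270 bases long (chr8:76899442-76908413), and 144 of its bases lie in exons of the main transcript Nr3c2-203. Its estimated counts were 5.0, 9.0, 3.0 and 2.1 in CTRL and 2.1, 0.0, 1.2, 3.1 and 3.0 in Emul. These few reads made 0.342% of the gene's counts and 14.3% of its TPM, and 27.8% of its TPM in CTRL 2. The summed TPM of Nr3c2 did not overlap between the groups, from 9.65 to 12.3 in CTRL and from 7.27 to 9.50 in Emul (exact permutation test on log2 TPM, p = 0.0317). Without transcripts under 1000 bases it overlapped, at 8.40 ± 0.515 TPM in CTRL (SD, n = 4) and 7.48 ± 0.646 TPM in Emul (SD, n = 5; exact p = 0.0635). On gene counts scaled from TPM by length, the log2 fold change of Nr3c2 was -0.27 (limma-voom adjusted p = 0.266), and on the authors' log2 CPM table it was -0.26. Scaled in the same way from transcripts of 1000 bases and more, it was -0.08.

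**Figure D2:**
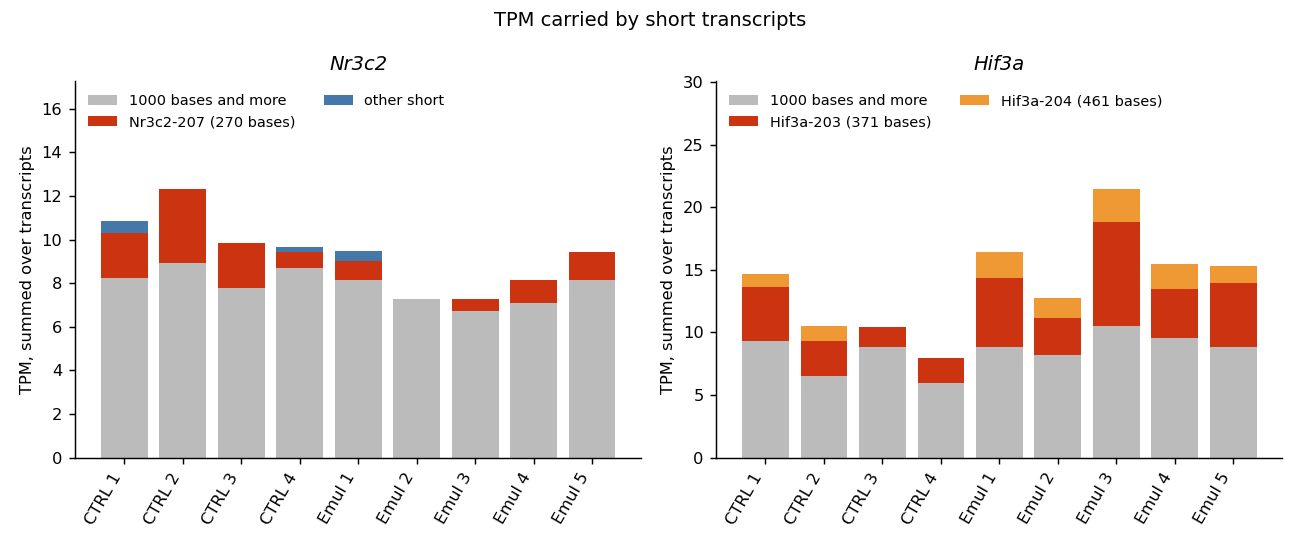
Stacked bars give the TPM (y axis) of Nr3c2 and Hif3a in each of the 9 libraries, split into transcripts of 1000 bases and more (grey) and short transcripts (colours). Nr3c2-207 reaches 3.43 TPM in CTRL 2 and is at 0 in Emul 2, and Hif3a-203 reaches 8.35 TPM in Emul 3.

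Hsd11b1 (chr1:193221634-193264075, minus strand) encodes the enzyme that regenerates active corticosterone inside cells. Its log2 CPM was 2.86, 2.73, 2.60 and 2.98 in CTRL and 2.84, 3.17, 3.05, 2.82 and 2.98 in Emul. The groups overlapped, with 2 Emul libraries above every CTRL library, and the log2 fold change was 0.16 ± 0.099 (SE; limma-voom adjusted p = 0.449). Its main transcripts, Hsd11b1-201 with 52.5% and Hsd11b1-205 with 43.2% of counts, had log2 fold changes of -0.01 and 0.28, neither at an unadjusted p under 0.05.

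Fkbp5 (chr17:28399094-28517527, minus strand) encodes the feedback co-chaperone and is a common readout of receptor activity. Log2 CPM of Fkbp5 was 5.98, 5.69, 5.93 and 5.18 in CTRL and 5.71, 5.71, 6.26, 6.13 and 6.16 in Emul. Emul 3, Emul 4 and Emul 5 lay above every CTRL library, Emul 1 and Emul 2 lay inside the CTRL range, and CTRL 4 was far below the rest. The log2 fold change was 0.31 ± 0.16 (SE; 95% confidence interval -0.04 to 0.67; limma-voom adjusted p = 0.374). Without CTRL 4 it was 0.13, and without CTRL 1, CTRL 3, Emul 1 or Emul 2 it was 0.42, 0.38, 0.38 or 0.39, each at an unadjusted p under 0.05. Fkbp5-201 held 90.1% of the counts.

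Zbtb16 (chr9:48654297-48836222, minus strand) encodes PLZF, a zinc finger transcription factor. In log2 CPM, Zbtb16 stood at 4.89, 4.87, 4.56 and 3.87 in CTRL and 5.11, 5.03, 5.51, 5.10 and 5.52 in Emul. Every Emul library was above every CTRL library, and CTRL 4 was the lowest library. The log2 fold change was 0.71 ± 0.19 (SE; 95% confidence interval 0.30 to 1.12), or 1.64-fold, at an unadjusted p of 0.00254 by limma-voom and an adjusted p of 0.141. The exact permutation test on log2 CPM gave p = 0.00794, the smallest it allows. In TPM, which carries no correction for composition, the groups overlapped (exact permutation test on log2 TPM, p = 0.0317). There, Emul 2 was at 13.42 TPM, below CTRL 1 at 13.75 TPM and CTRL 2 at 13.71 TPM. Without CTRL 4 the log2 fold change was 0.46, under the 1.5-fold criterion, with an unadjusted p of 0.00475 by limma-voom. Both annotated transcripts were higher. Zbtb16-201, with 82.8% of counts, had estimated counts of 933.3, 1003.4, 532.8 and 510.2 in CTRL and 1123.5, 1132.4, 1449.0, 1269.3 and 1387.2 in Emul, higher by 0.74 ± 0.22 (SE) on the log2 scale. Zbtb16-202 had a log2 fold change of 0.60 ± 0.20 (SE).

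Hif3a (chr7:17031507-17062427, minus strand) encodes a member of the hypoxia-inducible factor family. Log2 CPM of Hif3a was 4.91, 4.35, 4.69 and 4.23 in CTRL and 4.95, 4.87, 5.14, 4.99 and 4.89 in Emul. The Emul libraries lay close together, and CTRL 1 was the one CTRL library inside their range. The log2 fold change was 0.44 ± 0.12 (SE; 95% confidence interval 0.19 to 0.69), or 1.36-fold, at an unadjusted p of 0.00244 by limma-voom and an adjusted p of 0.137. The two-sided exact permutation test gave p = 0.0238. By DESeq2 the log2 fold change was 0.40 with an adjusted p of 0.0244. DESeq2 gave 341 of all 15340 genes an adjusted p under 0.05, against 18 by limma-voom. Over the alternatives tried, the adjusted p ran from 0.0244 to 0.307.

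The size of the Hif3a difference depended on how transcripts were summed. On length-scaled gene counts its log2 fold change was 0.69, past 1.5-fold, and on the authors' log2 CPM table it was 0.69 too. Hif3a-203 (371 bases, chr7:17048851-17050663) and Hif3a-204 (461 bases, chr7:17051954-17062384) together held few reads, with 1.66% and 0.798% of the gene's counts, but 29.2% and 9.57% of its TPM. Estimated counts of Hif3a-204 were 6.2, 7.7, 0.0 and 0.0 in CTRL and 13.8, 11.3, 16, 15 and 8.3 in Emul. These groups did not overlap, and 405 of its 461 bases lie in exons of the main transcript. Length-scaled from transcripts of 1000 bases and more, the log2 fold change of Hif3a was 0.41. The main transcript, Hif3a-202 (6402 bases, 95.5% of counts), rose with a log2 fold change of 0.44 ± 0.13 (SE) at an unadjusted p of 0.00692 by limma-voom, with an adjusted p of 0.336.

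**Figure D3:**
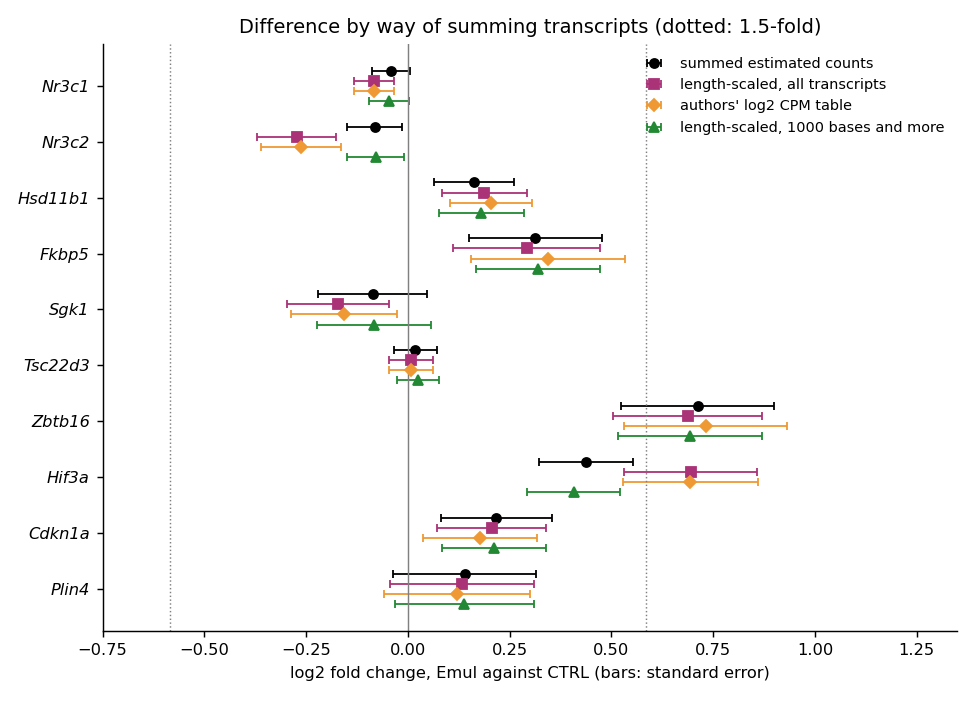
Log2 fold changes of Emul against CTRL (x axis) for the 10 genes (y axis), with bars of 1 standard error, from summed estimated counts, length-scaled counts of all transcripts, the authors' log2 CPM table and length-scaled counts from transcripts of 1000 bases and more; dotted lines mark 1.5-fold. The 4 values lie close together for most genes, while Nr3c2 moves from -0.08 to -0.27 and Hif3a from 0.44 to 0.69 where short transcripts enter by TPM.

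Sgk1 (chr10:21882184-21999903, plus strand) encodes a kinase that regulates ion channels and transporters. In log2 CPM, Sgk1 stood at 6.57, 6.26, 5.79 and 6.31 in CTRL and 6.32, 5.93, 6.02, 6.41 and 6.09 in Emul. All 5 Emul libraries lay inside the CTRL range, and the log2 fold change was -0.09 ± 0.13 (SE; limma-voom adjusted p = 0.797). Without CTRL 1, the highest library, it was 0.02. CTRL 1 also had the highest summed level of oligodendrocyte markers, 17440 CPM, and the part of those cells in the level of Sgk1 was not tested.

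Tsc22d3 (chrX:140539528-140600659, minus strand) encodes GILZ, an anti-inflammatory leucine zipper protein, and was the most abundant member, at 129.7 to 164.6 TPM. Its log2 CPM was 7.17, 7.12, 7.12 and 6.99 in CTRL and 7.04, 7.01, 7.18, 7.25 and 7.09 in Emul. Emul 3 and Emul 4 lay above every CTRL library and CTRL 4 lay below every Emul library, and the log2 fold change was 0.02 ± 0.052 (SE; limma-voom adjusted p = 0.898), or -0.01 with library size alone. Cdkn1a (chr17:29090976-29100727, plus strand) encodes the cell cycle inhibitor p21. Its log2 CPM was 5.14, 4.76, 4.78 and 4.82 in CTRL and 4.86, 4.90, 5.23, 4.97 and 5.58 in Emul. CTRL 1 stood above the other CTRL libraries and Emul 5 was the highest of all, with a log2 fold change of 0.22 ± 0.14 (SE; limma-voom adjusted p = 0.461). Without Emul 5 it was 0.11. Plin4 (chr17:56100591-56109803, minus strand) encodes a lipid droplet coat protein and was the least abundant member, at 1.94 to 3.77 TPM. Log2 CPM of Plin4 was 3.43, 3.19, 3.12 and 2.51 in CTRL and 3.0, 2.91, 3.55, 3.30 and 3.19 in Emul. The groups overlapped, and the log2 fold change was 0.14 ± 0.18 (SE; limma-voom adjusted p = 0.738), or -0.07 without CTRL 4.

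Of the 71 transcripts of the members, 27 passed the filter and 5 had an unadjusted p under 0.05, all higher in Emul, against 10.8% of 39840 transcripts tested. The lowest adjusted p among them was 0.336 by limma-voom. They were both transcripts of Zbtb16, Hif3a-202, Cdkn1a-205 and Plin4-201. Cdkn1a-205, with 4.89% of the counts of Cdkn1a, averaged 36.9 estimated counts in CTRL and 82.2 in Emul, higher by 1.10 ± 0.39 (SE) on the log2 scale. Plin4-201 and Plin4-202 differ in length by 1 base (5755 and 5756 bases), and 5734 bases of the first lie in exons of the second. Estimated counts of Plin4-201 were 30.3, 206.7, 136.1 and 0.1 in CTRL and 176.8, 172.5, 245.6, 245.9 and 183.0 in Emul. In CTRL 1 and CTRL 4, Plin4-202 held 92.7% and 99.97% of the gene's TPM, while in the other 7 libraries Plin4-201 held 55.0% to 56.3% of the TPM. The log2 fold change of Plin4-201, 3.55 ± 1.30 (SE), stands beside -0.46 ± 0.28 (SE) for Plin4-202 and 0.14 for the whole gene.

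By TPM, Tsc22d3 was highest, followed by Sgk1, and Plin4 was lowest. Between them lay the set of Fkbp5, Nr3c1 and Cdkn1a, and below it the set of Zbtb16, Hif3a, Nr3c2 and Hsd11b1. Within each set the genes are listed in no order. Fkbp5 (24.4 to 51.1 TPM), Nr3c1 (32.0 to 43.6 TPM) and Cdkn1a (29.8 to 50.5 TPM) overlapped across libraries. Zbtb16 (6.81 to 19.96 TPM), Hif3a (7.98 to 21.5 TPM), Nr3c2 (7.27 to 12.3 TPM) and Hsd11b1 (9.13 to 11.9 TPM) overlapped likewise.

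The other members, receptors and Hsd11b1 included, were then compared across the 9 libraries with Fkbp5, in 9 relations. Pearson's r of log2 CPM was 0.90 for Plin4 (Spearman's rho 0.73), 0.84 for Zbtb16 (rho 0.75), 0.81 for Hif3a (rho 0.80) and 0.77 for Tsc22d3 (rho 0.67). The two-sided exact permutation p of r was 0.00181 for Plin4, 0.00782 for Zbtb16, 0.00558 for Hif3a and 0.0127 for Tsc22d3. Adjusted over the 9 relations, these 4 stood at 0.0162, 0.0235, 0.0235 and 0.0286 by the exact permutation test, and the same 4 by rho at 0.0700, 0.0700, 0.0622 and 0.0883. Cdkn1a had r of 0.64 and rho of 0.82, and Nr3c2 had r of -0.68 and rho of -0.70 (exact permutation p of r 0.0635 and 0.0392, adjusted 0.0953 and 0.0706). The exact permutation p of rho was 0.0108 for Cdkn1a, the smallest of the 9 relations, and 0.043 for Nr3c2 (adjusted 0.0622 and 0.078). By rho, no relation had an adjusted p under 0.05. For Sgk1, Nr3c1 and Hsd11b1, r lay between -0.15 and 0.08, and the exact permutation p of rho ran from 0.81 to 0.982. Centred within groups, r was 0.93 for Plin4, 0.82 for Zbtb16, 0.78 for Hif3a and 0.83 for Tsc22d3. The adjusted p by the exact permutation test was then 0.0344 for Plin4, 0.0484 for Tsc22d3, and 0.0617 for both Zbtb16 and Hif3a. Without CTRL 4 and Emul 3, the 2 libraries farthest from the median of Fkbp5, r fell to 0.62, 0.39, 0.47 and 0.63 in the same order, and none of the 9 relations passed an adjusted p of 0.05 by the exact permutation test. There, 7 libraries over a narrower range of Fkbp5 remained, and r of Cdkn1a was 0.71. The adjusted calls of Plin4, Zbtb16, Hif3a and Tsc22d3, though not the sign of their r, depended on the 2 libraries. Those of Zbtb16 and Hif3a were also lost on centring. The share of all genes tested with an r to Fkbp5 of this size was not examined. Whether these relations are particular to the members was therefore not tested.

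**Figure D4:**
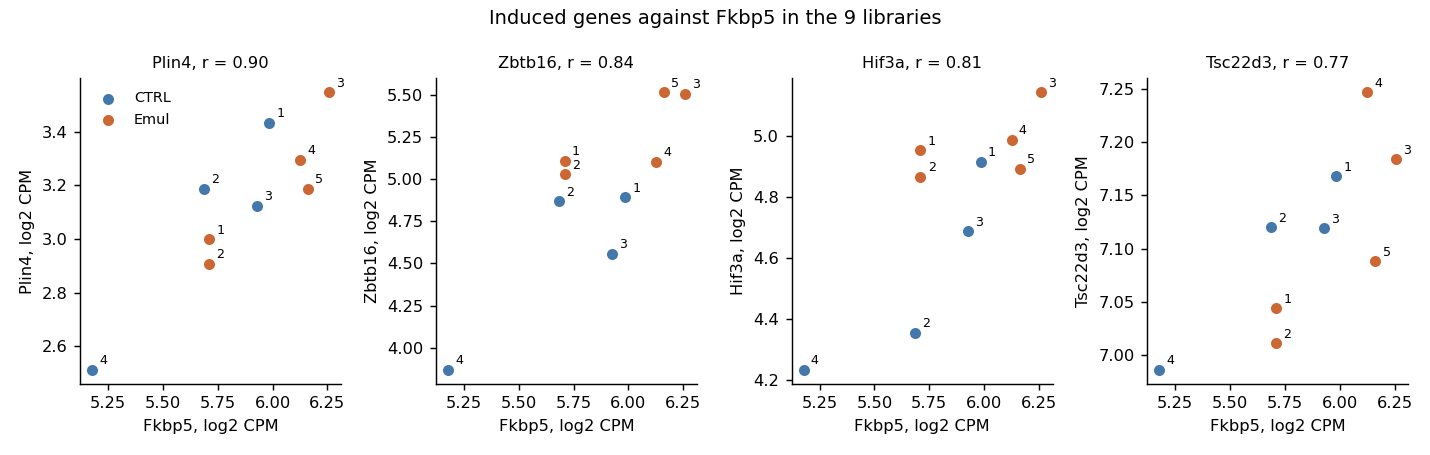
Log2 CPM of Plin4, Zbtb16, Hif3a and Tsc22d3 (y axes) against log2 CPM of Fkbp5 (x axis) in the 4 CTRL and 5 Emul libraries, numbered by replicate. CTRL 4 sits at the lower left of every panel, and r over all 9 libraries is 0.90, 0.84, 0.81 and 0.77.

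Other genes of the pathway were taken as lists. Of 35 other genes known to be induced by glucocorticoids, 34 were tested, 3 were higher and 3 lower at an unadjusted p under 0.05 by limma-voom, and none passed the cutoff. Over all genes tested, 6.84% were higher and 8.99% lower at that p. The median log2 fold change of the list was -0.02. The higher genes were Klf9, a Krüppel-like factor (0.20 ± 0.057, SE), Mertk, a phagocytic receptor (0.34 ± 0.10), and the kinase gene Map3k6 (0.40 ± 0.18). The lower genes were Pdk4, a kinase that restrains pyruvate dehydrogenase (-0.26 ± 0.076), the transcription factor gene Cebpd (-0.33 ± 0.096) and the clock gene Per1 (-0.12 ± 0.045). Pdk4 and Cebpd had no overlap between groups.

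Of 15 chaperones of the receptor complex, 4 were higher and 1 lower at an unadjusted p under 0.05. Hsp90aa1, the inducible cytosolic HSP90, had a log2 fold change of 0.11 ± 0.032 (SE). Cdc37 and Ppid were at 0.08 and 0.07. Dnajb1, an HSP40 co-chaperone, was lower at -0.23 ± 0.060. The median of the list was 0.04. Of 16 receptor cofactors, 1 was lower, the acetyltransferase gene Ep300 (-0.09 ± 0.035), and none was higher. Of 14 genes of steroid synthesis, transport and inactivation, 11 were tested, and Hsd11b2, Hsd3b1 and Serpina6 were under the filter. Dhcr7, an enzyme of late cholesterol synthesis, was lower, at -0.13 ± 0.033.

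Of 13 genes of the stress axis, 11 were tested and none reached an unadjusted p of 0.05. The 3 with the smallest p were Adcyap1 (0.23 ± 0.11, SE), Pomc (-0.23 ± 0.16) and Crhr2 (-0.17 ± 0.13). Of 11 other nuclear receptors, 1 passed the cutoff: Nr4a1, an activity-induced orphan receptor, was lower by limma-voom at -0.69 ± 0.19 (adjusted p = 0.146), without overlap. Of 16 clock genes, Ciart was higher (0.25 ± 0.061) and Per1 and Bhlhe41 were lower. No gene of these 7 lists had an adjusted p under 0.10 by limma-voom, against 0.398% of all genes tested.

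**Figure D5:**
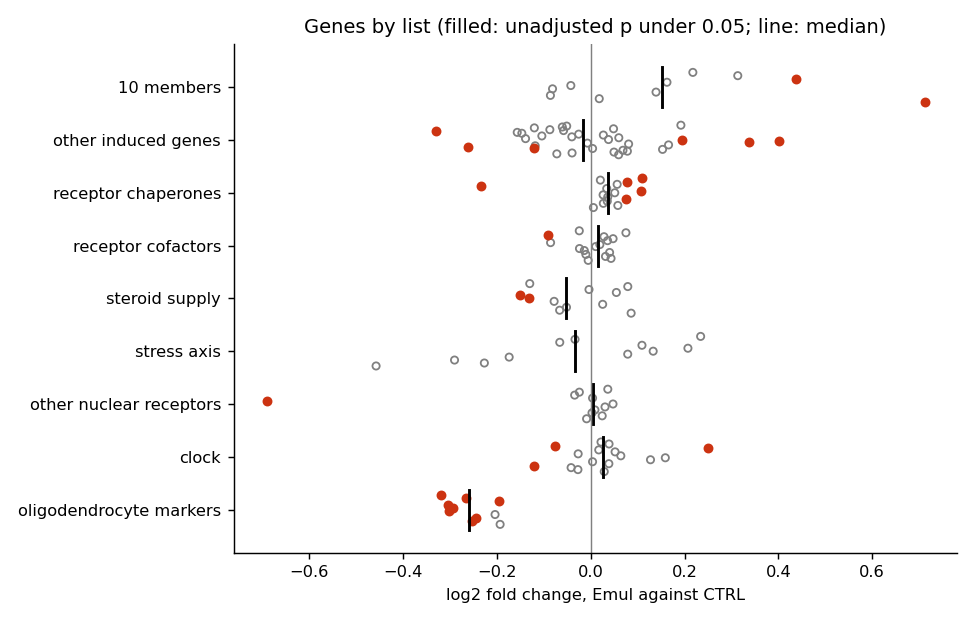
Log2 fold changes of Emul against CTRL (x axis) for every tested gene of 9 lists (y axis); filled points have an unadjusted p under 0.05 and the black line is the list's median. The members' median is 0.15, that of the 34 other induced genes -0.02 and that of the oligodendrocyte markers -0.26.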

How the data were processed

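Processed data of 9 MBH libraries were used, 4 CTRL and 5 Emul, grouped by their labels. The authors ran kallisto (version 0.46.1 in the submitters' processing notes, with mm10) on reads of a stranded mRNA library and deposited, per transcript, estimated counts and TPM values. The authors also deposited a gene table of log2 CPM values, and how transcripts were summarised for it is not given in the sources used here. Transcripts were matched to GENCODE M21 (97.8% of 119414), and the 1.20% to 1.27% of counts on unmatched ones were left out. Coordinates are from M21.

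For each gene, the estimated counts of its transcripts were added up, filtered at a CPM above 1 in at least 4 libraries, scaled by TMM and tested by limma-voom without covariates. The cutoff follows the study's methods. Standard errors of fold changes come from this fit, and adjusted p-values are Benjamini-Hochberg values over all genes (or all transcripts) tested. Single log2 CPM values use a prior count of 2. For edgeR and DESeq2, counts were rounded. Versions were limma 3.58.1, edgeR 4.0.16, DESeq2 1.42.0 and scipy 1.17.1. The ratio and the relations were tested by exact permutation. Scripts were tested on simulated data. The members and lists were chosen with earlier results of these data known. All 10 members are named. Of the other lists, genes past the cutoff or with an adjusted p under 0.10 are named, or otherwise the 3 with the smallest p; further genes at an unadjusted p under 0.05 were named after their values were seen. Marker genes are named where a result turns on them. Some genes of these lists are not reported here. Depth limits precision, and p-values measure the spread between litters. Alternatives were other tests, scalings, filters and summaries, a replicate block and leaving out each library.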

Additional observations from a re-analysis of the deposited data

Results flagged for a closer look

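Of 22 groups of values examined (the log2 CPM of the 10 members and the log2 ratio of Nr3c1 to Nr3c2, in each group), 1 held a library far from the others. For Cdkn1a, CTRL 1 stood at 5.14 log2 CPM while the other CTRL libraries lay between 4.76 and 4.82. Its gap took 0.844 of the range of the group, above the critical value of 0.829 for 4 libraries. Chance alone gives about 1 in 20 such groups, or 1.1 of 22.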

How the results depend on the processing

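Over 23 alternatives for each of the 10 members, 219 of 230 fold changes kept their direction and their side of an unadjusted p of 0.05, including all 23 for Zbtb16 and all 23 for Hif3a. Nr3c2 passed that p in 2 alternatives (length-scaled counts and the authors' table) and Fkbp5 in 4 (single libraries left out). The sign turned for Sgk1 without CTRL 1 (0.022), for Tsc22d3 with library size alone (-0.013), without CTRL 4 (-0.021) and without Emul 4 (-0.014), and for Plin4 without CTRL 4 (-0.073). Leaving out each library gave ranges of -0.071 to -0.0052 for Nr3c1, -0.12 to -0.045 for Nr3c2, 0.11 to 0.23 for Hsd11b1, 0.13 to 0.42 for Fkbp5, -0.22 to 0.022 for Sgk1, -0.021 to 0.044 for Tsc22d3, 0.46 to 0.84 for Zbtb16, 0.32 to 0.57 for Hif3a, 0.11 to 0.31 for Cdkn1a and -0.073 to 0.27 for Plin4. The correlation of Sgk1 with Fkbp5 turned to 0.16 without the 2 libraries farthest in Fkbp5. Members past the cutoff numbered 1, and 2 on length-scaled gene counts (lengthScaledTPM) and on the authors' log2 CPM table. They numbered 0 to 1 when each library was left out, and 0 at an adjusted p under 0.10 or under 0.05 by limma-voom in place of the threshold. At an unadjusted p under 0.05 there were 2, and 2 to 3 when each library was left out. Over all 9 libraries, 0 members passed an adjusted p under 0.10 or 0.05 by limma-voom, and without CTRL 1 Hif3a had an adjusted p of 0.0733. By DESeq2, Hif3a had an adjusted p of 0.0244 and Zbtb16 of 0.0861. Of 15340 genes, DESeq2 gave 341 an adjusted p under 0.05 and 716 one under 0.10, against 18 and 61 by limma-voom. For the ratio of Nr3c1 to Nr3c2, the difference ranged from 0.10 to 0.26 when each library was left out, and was 0.03 on estimated counts. Relations with Fkbp5 at an adjusted exact p of r under 0.05 numbered 4, then 2 when values were centred within groups and 0 without the 2 farthest libraries.

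Replicate numbers did not pair the libraries: the correlations of deviations of CTRL and Emul libraries with the same number were -0.163, -0.015, 0.021 and -0.055. With the replicate block, the log2 fold change was 0.61 for Zbtb16, 0.43 for Hif3a and 0.10 for Cdkn1a, and the counts of 1 and 2 members were the same. Over all genes, 72 passed the cutoff, 683 without a filter on low counts and 37 with a CPM above 1 in all libraries. At an unadjusted p under 0.05, 1049 genes were higher and 1379 lower, and 517 and 2248 with library size alone. No alternatives were run for the transcripts or the other lists. Estimated counts per library were lowest for Hsd11b1, at 171 to 372, and were 244 to 444 for Plin4, the least abundant member by TPM. The short transcripts of Nr3c2 and Hif3a had few enough counts that single reads move their TPM.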
